A study of Mus musculus with 6 samples.

Results

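Oxidative phosphorylation genes encode the respiratory chain (complexes I to IV) and ATP synthase (complex V) of the inner mitochondrial membrane. They were taken here as the nuclear genes whose symbols begin with Nduf (families a, b, c, s and v, followed by a number), Uqcr, Cox4 to Cox8 or Atp5, together with Sdha to Sdhd and Cyc1. The rule found 85 of the 24318 symbols in the tables: 37 of complex I, 4 of complex II, 9 of complex III, 18 of complex IV and 17 with an Atp5 symbol. Atp5s and Atp5sl are not structural subunits of ATP synthase and were kept out of all sums and counts, which leaves 83 structural genes.

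RNA was sequenced from thymocytes of mice aged 5 to 8 weeks, sorted as DN1 cells: CD44-positive cells without TCRb, CD25, CD8a or other lineage markers. The series compared 3 WT libraries with 3 libraries labelled Tle134-deficient, read here as deficient for Tle1, Tle3 and Tle4, which encode Groucho-family corepressors. The sources used here do not name the alleles, any Cre driver, the genetic background or pooling of animals. Nothing says that replicates came from separate animals, so p-values measure only how far these libraries spread, and that spread may be technical.

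Complex I passes electrons from NADH, and complex II from succinate, to ubiquinone. Complex III passes them on to cytochrome c, and complex IV to oxygen. Complexes I, III and IV pump protons, and complex V uses the gradient to make ATP. Complex II is encoded entirely in the nucleus, and the other complexes also hold subunits encoded by mitochondrial DNA, for which the tables held no symbol (0 of 26 sought). In thymocytes, as in other dividing cells, respiration supplies ATP and building blocks for growth.

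Levels are FPKM, fragments corrected for transcript length and for the total of the library. The deposited intervals imply 1.42e+06 to 4.34e+06 fragments per library over loci with a symbol. For structural genes above 0 in every library, including 4 that share a locus with another gene, the median was 73.6 to 364 fragments. The estimate can fail: Cox7b in labelled-deficient replicate 3 was at 70.6 FPKM but implied 0.00166 fragments. None of the targeted genes was lower in the libraries labelled deficient. Tle1 gave 1.37, 1.19 and 3.61 FPKM across WT replicates 1 to 3, against 11.5, 11.3 and 11.1 FPKM across those labelled deficient (adjusted p = 0.0954, limma), and Tle3 was also higher in all 3 of those libraries. Tle4 gave 17.9, 18.8 and 14.5 FPKM against 27.8, 35.2 and 17.8 FPKM, with overlap between groups (limma adjusted p = 0.726). The deposited values do not say which part of each gene was deleted, so the group is called labelled-deficient throughout. Of the sort markers, Cd44 was at 27.5 to 74.3 FPKM and Cd8a at 0 to 2.48 FPKM. Il2ra, which encodes CD25, was at 1.69 to 3.59 FPKM in WT and at 4.22 to 7.36 FPKM in the labelled-deficient libraries (limma adjusted p = 0.575). B-lineage markers summed to 75.4 to 129 FPKM in WT and to 605 to 978 FPKM in the labelled-deficient libraries. Of them, 8 of 10 were called higher, against 0.642% of all tested genes (defined below). T-lineage markers summed to 389 to 1066 FPKM in WT and to 181 to 647 FPKM in the labelled-deficient libraries. By limma 0 of 9 were called, against 0.75% of all tested genes in either direction. At an unadjusted p under 0.05 there were 2 of 9, against 10%. All 9 log2 differences were below 0, with a median of -0.99.

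No tested gene of any complex was called different between WT and labelled-deficient DN1 cells, and the summed levels of each complex overlapped between groups. No test was made of a complex as a whole. A gene counted as changed if its adjusted p in limma, fitted to log2(FPKM + 1) over all 11063 genes that reached 1 FPKM in at least 3 libraries, was under 0.05. Of the 74 structural genes tested, 0 were higher and 0 were lower in the labelled-deficient libraries, where 0.642% of all tested genes were higher, 0.108% lower and 0.75% called in either direction. At an unadjusted p under 0.05 the count was also 0 of 74, against 10% of all tested genes. For 0 of 74 the groups did not overlap, against 15.2% of all tested genes (8.67% higher and 6.56% lower). The remaining 9 genes failed the expression filter or share a locus with another gene and are accounted for below. The count over all genes changed when single libraries were left out. With all libraries 83 genes were called, but 0 without WT replicate 1, 0 without labelled-deficient replicate 1 and 0 without labelled-deficient replicate 2. A fit to fewer libraries also has less power. Without WT replicate 3, however, 68 genes were still called higher. Whether the calls rest on single libraries was not tested.

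The median log2 difference of the 74 genes, labelled-deficient minus WT, was -0.04, with 35 above 0 and 39 below. Over all tested genes it was 0.04. By complex the medians were -0.02 for complex I, -0.07 for complex II, -0.06 for complex III, 0.04 for complex IV and -0.17 for complex V. The single values ran from -1.46 to 0.73, and the smallest adjusted p was 0.612. Precision was low: the 95% interval of a gene's log2 difference reached a median of 1.35 to each side. It lay within a 4-fold change (2 on the log2 scale) in either direction for 59 of 74 genes and within a 2-fold change for 2. At this spread a change of a single gene could go uncalled, also one of 2-fold or 4-fold. The size of change that would be called was not tested.

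**Figure D1:**
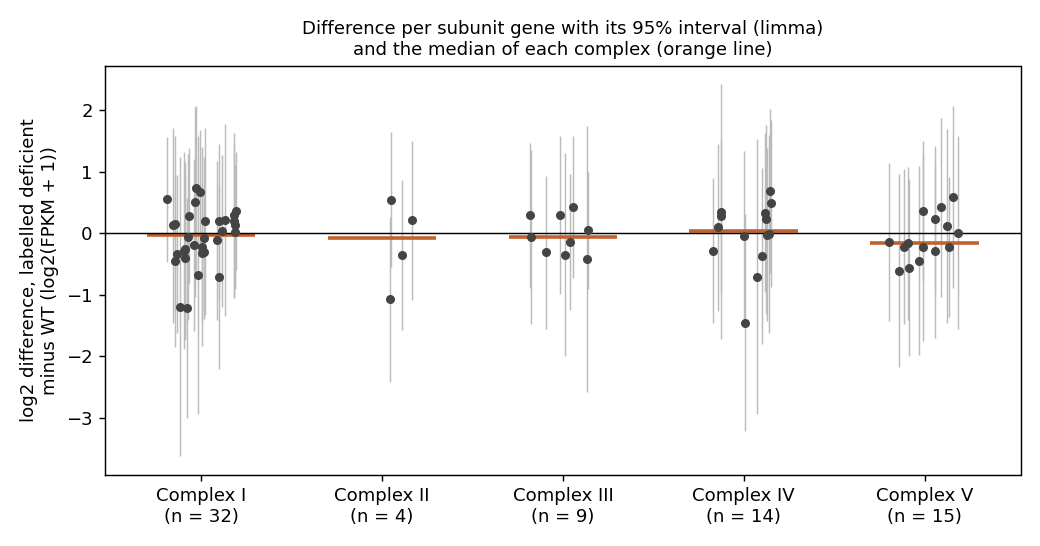
Log2 difference (labelled-deficient minus WT, on the log2(FPKM + 1) scale) of each tested structural gene, by complex, with its 95% interval from limma (grey) and the median of each complex (orange line). The values spread around 0 in every complex, from -1.46 (Cox4i2) to 0.73 (Ndufa3), and none passed the threshold.

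The summed level of all structural genes was 2903, 2426 and 8058 FPKM in WT replicates 1 to 3 and 3683, 3082 and 6876 FPKM in labelled-deficient replicates 1 to 3. The groups overlapped, and replicate 3 was the highest library of each. The means were 4462 ± 3123 FPKM in WT and 4547 ± 2039 FPKM in the labelled-deficient group (SD, n = 3 each), a ratio of 1.02. In bulk RNA, a change in the share of cells rich in these transcripts and a change in transcripts per cell cannot be told apart.

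Complex I summed to 915, 785 and 2469 FPKM across WT, against 1166, 1427 and 2085 FPKM across the labelled-deficient libraries (ratio of means 1.12). Complex II, with the fewest genes and the lowest sum, stood at 92.8, 85.8 and 178 FPKM against 76.1, 105 and 194 FPKM (ratio 1.05). Complex III gave 434, 333 and 1384 FPKM against 502, 288 and 1034 FPKM (ratio 0.848). In each of these complexes the highest and the next highest library were the replicates numbered 3. Of the remaining libraries, the labelled-deficient ones lay above WT in complex I, where they overlapped once Ndufb8 was left out, and overlapped WT in complexes II and III. Complex IV summed to 615, 543 and 1838 FPKM across WT, against 896, 596 and 1599 FPKM across the labelled-deficient libraries (ratio 1.03). Complex V summed to 847, 679 and 2189 FPKM against 1044, 665 and 1963 FPKM (ratio 0.989). Without the libraries numbered 3, the log2 ratios of the group means were 0.61 for complex I (with Ndufb8, described below), 0.02 for II, 0.04 for III, 0.37 for IV and 0.16 for V, and 0 of the genes were called.

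**Figure D2:**
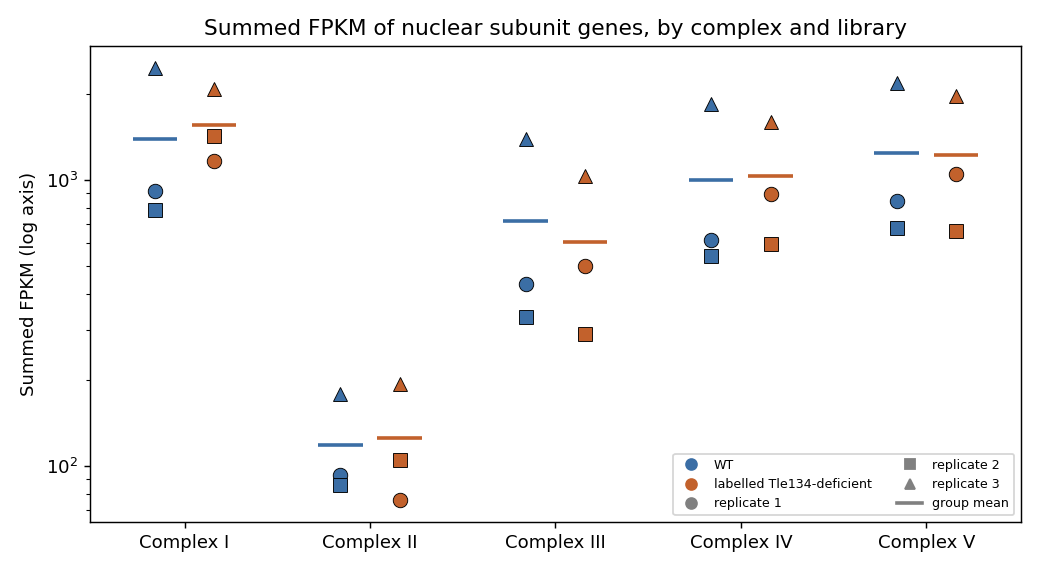
Summed FPKM of the structural genes of complexes I to V on a log axis in each of the 6 libraries (colour for the group, marker shape for the replicate), with the mean of each group (line). In every complex the WT and labelled-deficient points overlap and replicate 3 is the highest library of its group.

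The main variation lay between libraries of 1 group. The ratio of replicate 3 to the mean of replicates 1 and 2 was 3.02 in WT and 2.03 in the labelled-deficient group for the sum of all complexes. It was 2.90 and 1.61 for complex I, 2.0 and 2.15 for II, 3.61 and 2.62 for III, 3.18 and 2.14 for IV, and 2.87 and 2.30 for V. Replicate 3 was the highest library of both groups for 64 of the 74 tested genes, against 28% of all tested genes. Among 1146 other genes with a median transcript of at most 800 bases the share was 41.0%. WT replicate 3 led its group for 72 of 74 genes (53.5% of all tested genes) and labelled-deficient replicate 3 for 65 of 74 (44.8% of all tested genes). Of the 70 genes above 0 in every library, the ratio exceeded 1 in both groups for 70 and exceeded 2 in both for 39. Their level differed between the highest and the lowest library by a median of 4.19-fold.

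The size of this difference depended on the scaling. Each table is scaled to its own library, and 1 to 9 loci per library lay above 10000 FPKM. Scaled by median-of-ratios size factors, the ratios for all complexes were 2.15 in WT and 1.67 in the labelled-deficient group. Scaled to the total of loci up to 10000 FPKM, they were 1.79 and 1.35. Scaled to a common total over all loci with a symbol they were 0.531 and 2.26, so the direction in WT turned. In that last scaling 16.4% to 85.2% of a library's total sat in the loci above 10000 FPKM. Under all these scalings the group sums overlapped for each of complexes I to V, and 0 members were called. The calls over all genes were 71 higher and 12 lower as deposited, and 3 higher and 1 lower when scaled to that common total.

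**Figure D3:**
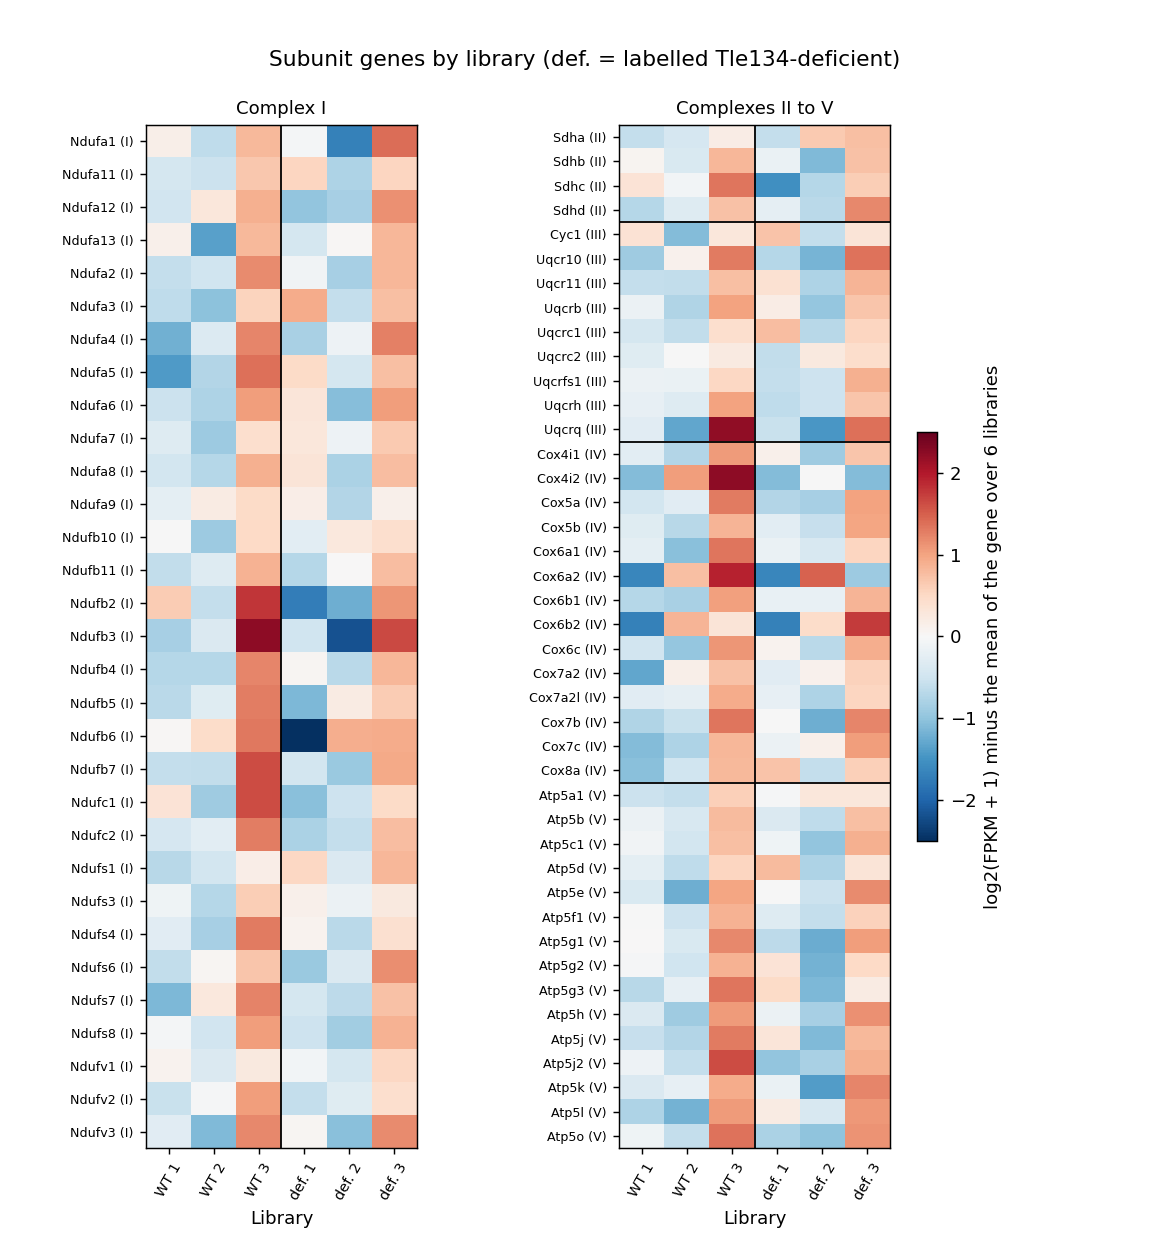
Log2(FPKM + 1) of tested structural genes, 1 row per gene, minus the gene's mean over the 6 libraries, grouped by complex; columns are libraries and blue is below and red above the gene's mean. The columns of WT replicate 3 and labelled-deficient replicate 3 are above the mean for most genes of every complex, and no block separates the groups.

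Complex I is an L-shaped enzyme of catalytic core subunits surrounded by accessory subunits. Ndufs1, a large core subunit that carries iron-sulphur clusters, was at 9.18, 10.9 and 17.3 FPKM across WT, against 22.5, 11.9 and 28.3 FPKM across the labelled-deficient libraries. Labelled-deficient replicates 1 and 3 were above all WT libraries, but replicate 2 lay inside the WT range (log2 difference 0.67 ± 0.45 SE, limma adjusted p = 0.719).

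The 25 accessory genes tested had a median of -0.06. Ndufb2, of the membrane arm, was at 31.4, 12.8 and 71.4 FPKM across WT, against 5.33, 8.03 and 44.2 FPKM across the labelled-deficient libraries. Its lowest values were the labelled-deficient replicates 1 and 2, and replicate 3 lay within the WT range (log2 difference -1.22 ± 0.80 SE, adjusted p = 0.706). Ndufa3 had a difference of the opposite sign, with 54.4, 41.7 and 127 FPKM across WT, against 164, 56.5 and 144 FPKM across the labelled-deficient libraries (0.73 ± 0.60 SE, adjusted p = 0.783). Again 2 labelled-deficient libraries lay outside the WT range and 1 inside. Ndufb3 (mm9 chr1:58643443-58652792) varied most between libraries among the genes above 0 throughout and not joined to another: 6.08, 8.84 and 58.3 FPKM across WT, against 7.98, 1.81 and 38.5 FPKM across the labelled-deficient libraries. Its replicate 3 was 7.81 times the mean of the others in WT and 7.87 times in the labelled-deficient group, on 8 to 167 implied fragments. Ndufb6 reached 11.5 to 29.6 FPKM in 5 libraries but was listed at 0 in labelled-deficient replicate 1. A 0 in such a table can be a failed estimate.

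Ndufb8 (mm9 chr19:44624744-44629905), a membrane-arm accessory subunit, set the complex I sum of 1 library. It was at 36.4, 23.2 and 61.9 FPKM across WT, against 16.2, 615 and 58.4 FPKM across the labelled-deficient libraries. Labelled-deficient replicate 2 was 38.0 times the lowest library, while its interval implied only 59.9 fragments, fewer than in 3 of the other libraries. In at least 1 table the gene shares a locus with Sec31b, so it was tested as a joined unit (log2 difference 1.15 ± 1.07 SE, adjusted p = 0.831) and not counted among the 74. The same holds for Ndufa10, joined to Mir6900, Ndufb9, joined to Rnf139, and Ndufs5, joined to BC002163. Their log2 differences were -0.04, 0.09 and 0.52, and their groups overlapped. Without Ndufb8, complex I summed to 879, 762 and 2407 FPKM across WT, against 1150, 812 and 2026 FPKM across the labelled-deficient libraries, a ratio of 0.985. The sum of all complexes then had a ratio of 0.976, so that both ratios moved from above to below 1.

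Complex II, succinate dehydrogenase, also works in the citrate cycle. Sdha, its flavoprotein, was at 29.4, 33.5 and 51.1 FPKM across WT, against 29.4, 71.5 and 76.3 FPKM across the labelled-deficient libraries. Replicates 2 and 3 of the latter were above the WT range and replicate 1 was at its lower end (log2 difference 0.55 ± 0.49 SE, adjusted p = 0.820). Sdhc, a membrane anchor that binds haem and ubiquinone, gave 21.0, 15.5 and 42.9 FPKM against 4.99, 9.61 and 25.7 FPKM. Replicates 1 and 2 of the labelled-deficient group were below every WT library and replicate 3 was not (-1.08 ± 0.60 SE, adjusted p = 0.630). Sdhb, the iron-sulphur subunit, and Sdhd, the other anchor, had log2 differences of -0.35 and 0.21. The 4 subunits of this complex thus had differences of both signs between groups, and all 4 were highest in replicate 3 of both groups.

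Complex III holds catalytic and core proteins and small subunits. For the 4 genes of cytochrome c1 (Cyc1), the Rieske protein (Uqcrfs1) and the core proteins (Uqcrc1 and Uqcrc2), the median ratio of replicate 3 to the others was 1.52 in WT and 1.38 in the labelled-deficient group. For the 5 small subunits it was 2.70 and 2.44. In the labelled-deficient group the ranges overlapped, at 1.10 to 2.86 and 1.91 to 5.07, and the difference was not tested. Cyc1 was at 20.4, 6.87 and 19.2 FPKM across WT, against 26.1, 9.99 and 19.8 FPKM across the labelled-deficient libraries, where replicate 1 led both groups and replicate 2 was lowest in both. Uqcrq (mm9 chr11:53242450-53244333), a small membrane subunit, was at 123, 60.3 and 697 FPKM across WT, against 102, 53.8 and 391 FPKM across the labelled-deficient libraries. Its replicate 3 values were the highest of any complex III gene in those libraries (log2 difference -0.42 ± 0.97 SE, adjusted p = 0.961). Uqcrb gave 108, 70.4 and 241 FPKM against 136, 61.0 and 196 FPKM, and Uqcrh, the hinge protein, 60.8, 56.5 and 143 FPKM against 45.2, 48.9 and 115 FPKM. Both sets of groups overlapped (adjusted p = 0.996 and 0.946).

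Complex IV, cytochrome c oxidase, has subunits that exist as ubiquitous and tissue-restricted isoforms, the latter known from heart and muscle, lung or testis. The 10 ubiquitous genes had a median mean level of 70.6 FPKM. Cox6c (mm9 chr15:35861731-35868001) was the most abundant structural gene of all by its mean of 316 FPKM. It was at 194, 139 and 589 FPKM across WT, against 291, 169 and 515 FPKM across the labelled-deficient libraries (log2 difference 0.22, adjusted p = 0.975). Cox5b gave 94.3, 71.6 and 211 FPKM against 97.3, 77.2 and 231 FPKM, and Cox7c gave 27.2, 34.0 and 105 FPKM against 52.9, 64.2 and 123 FPKM. Replicate 3 was the highest library in each case, and Cox7c had the largest positive difference of the complex (0.68 ± 0.60 SE, adjusted p = 0.807).

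DN1 cells expressed the ubiquitous isoforms. Cox4i1 held 94.8% to 100% of the Cox4i1 and Cox4i2 total in a library, Cox6a1 86.3% to 100% of its pair with Cox6a2, and Cox6b1 82.5% to 100% of its pair with Cox6b2. Ndufa4l2, Cox7b2, Cox8b and Cox8c were listed at 0 in all 6 libraries. The lung isoform gene Cox4i2 was listed at 0, 3.37 and 9.01 FPKM across WT, against 0, 1.11 and 0 FPKM across the labelled-deficient libraries (adjusted p = 0.612). Cox6a2 was at 0, 4.21 and 10.7 FPKM against 0, 7.53 and 0.649 FPKM, and Cox6b2, known from testis, at 0, 4.81 and 3.04 FPKM against 0, 3.46 and 9.87 FPKM. All 3 were listed at 0 in replicate 1 of both groups, the libraries of lowest depth. Cox7a1, the heart and muscle isoform, was listed above 0 in labelled-deficient replicate 3 alone, at 13.3 FPKM, where it made up 39.5% of the Cox7a1 and Cox7a2 total. It failed the expression filter, as did the 4 genes at 0. Cox7a2, the ubiquitous form, was at 4.82, 14.8 and 22.9 FPKM against 10.8, 14.4 and 20.4 FPKM. Cox7a2l, which takes part in joining complexes III and IV, was at 49.7, 51.8 and 117 FPKM against 52.5, 35.3 and 88.2 FPKM. Ndufa4, named for complex I and since also assigned to complex IV, was at 11.4, 21.5 and 65.1 FPKM against 15.3, 25.0 and 66.9 FPKM. All 3 were highest in replicate 3 of both groups, and their groups overlapped.

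ATP synthase consists of the catalytic F1 head and the membrane-bound Fo rotor and stalk. The 5 genes of the head and central stalk had a median log2 difference of 0.23, the 3 c-ring genes of -0.30, and the 7 genes of the peripheral stalk and other membrane subunits of -0.23. Atp5a1, the alpha subunit of the head, was at 81.7, 78.7 and 182 FPKM across WT, against 117, 146 and 147 FPKM across the labelled-deficient libraries, all of which lay between the lowest and the highest WT value. Atp5d, the delta subunit of the central stalk, was highest in labelled-deficient replicate 1, with 44.3, 33.5 and 76.8 FPKM across WT, against 91.8, 30.5 and 65.8 FPKM across the labelled-deficient libraries. Atp5h (mm9 chr11:115277011-115281233), of the peripheral stalk, had the highest mean of the complex, 263 FPKM. It was at 173, 119 and 467 FPKM against 201, 124 and 493 FPKM, almost the same series of values in each group (log2 difference 0.11, adjusted p = 0.987).

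Atp5l had the largest positive difference of the complex, with 39.8, 29.6 and 145 FPKM across WT, against 79.4, 51.4 and 146 FPKM across the labelled-deficient libraries (0.59 ± 0.66 SE, adjusted p = 0.869). Atp5j2 had the most negative, with 53.8, 39.0 and 186 FPKM against 29.2, 33.1 and 111 FPKM (-0.61, adjusted p = 0.873). Atp5g1, Atp5g2 and Atp5g3 encode the same mature c subunit with different import peptides. Atp5g1 was the least abundant of the 3 in every library, with 10.4% to 29.8% of their total, while Atp5g2 held 31.7% to 45.1% and Atp5g3 30.1% to 48.3%. All 3 had negative log2 differences (-0.56, -0.22 and -0.30), and none passed the test. Of the 2 symbols outside the structure, Atp5sl, an assembly component of the complex I membrane arm also called Dmac2, was at 4.66, 6.16 and 6.14 FPKM across WT, against 11.9, 10.7 and 11.3 FPKM across the labelled-deficient libraries. It was the only symbol of the rule whose groups did not overlap, which held for 15.2% of all tested genes. Its spread within groups was small (log2 difference 0.89 ± 0.39 SE, limma adjusted p = 0.476). Its unadjusted p was under 0.05, as for 10% of all tested genes.

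The balance between complexes varied less than their level, and it does not depend on how a library is scaled. In WT, complex I made up 31.5%, 32.4% and 30.6% of the summed FPKM of all complexes, complex IV 21.2%, 22.4% and 22.8%, and complex V 29.2%, 28.0% and 27.2%. Complex III made up 14.9%, 13.7% and 17.2%, and complex II 3.20%, 3.53% and 2.21%. Labelled-deficient replicate 2 stood apart, with 46.3% in complex I against 31.7% and 30.3% in replicates 1 and 3. Without Ndufb8 that value was 32.9%. Complex I then ranged from 29.7% to 32.9%, complex III from 11.7% to 17.3% and complex V from 26.9% to 29.5% over all 6 libraries, with overlap between groups. Complex IV then held 21.4%, 22.6% and 23.0% in WT and 24.4%, 24.2% and 23.5% in the labelled-deficient libraries, 22.3 ± 0.81% and 24.0 ± 0.50% (SD, n = 3 each). This was the only one of the 5 shares whose groups did not overlap, and they overlapped when Ndufb8 was kept. Among all tested genes, the groups did not overlap for 15.2%. No test was made of the complex IV share.

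**Figure D4:**
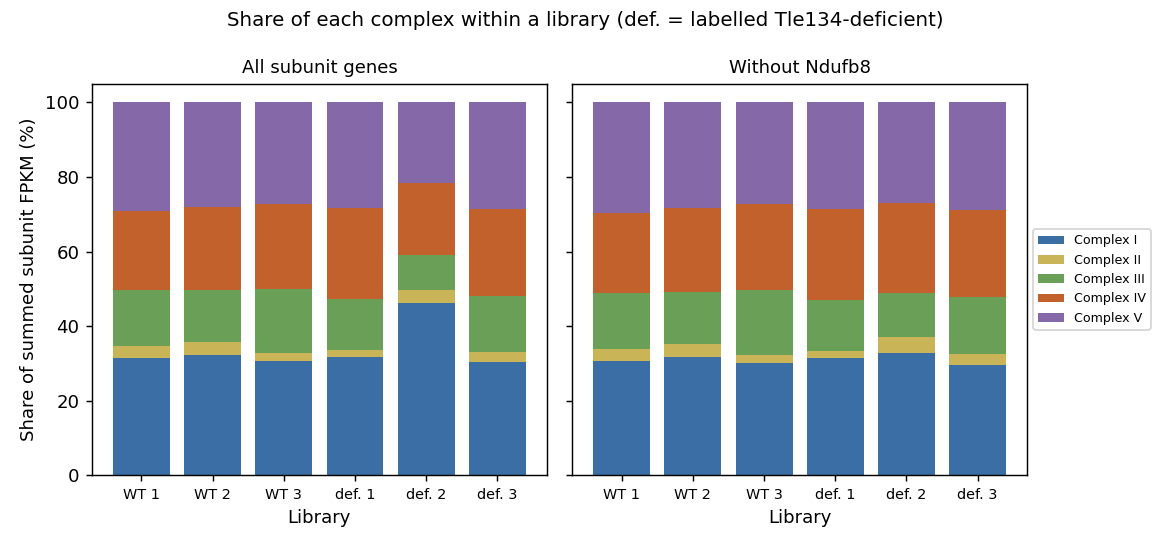
Share of complexes I to V in the summed FPKM of the structural genes in each library, with Ndufb8 (left) and without it (right), in percent. The share of complex I in labelled-deficient replicate 2 is 46.3% with Ndufb8 and 32.9% without it, and the other libraries differ by few percentage points.

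Other genes of mitochondrial respiration were read from fixed lists, and by limma 0 genes were called in each of them, with 1 (Ndufaf2) at an unadjusted p under 0.05. Respiratory assembly factors, which insert cofactors and build the complexes, had a median log2 difference of 0.14 over 39 tested genes. Ndufaf2, a complex I assembly factor, was at 6.35, 6.11 and 17.4 FPKM across WT, against 79.0, 8.71 and 73.7 FPKM across the labelled-deficient libraries. Replicates 1 and 3 were far above WT and replicate 2 was not (1.97 ± 0.79 SE, limma adjusted p = 0.417). Ndufaf4 was at 2.05, 16.6 and 30.5 FPKM against 2.37, 1.98 and 4.78 FPKM, with WT replicate 1 at the level of the labelled-deficient libraries (-1.62 ± 0.79 SE, adjusted p = 0.553). These were the 2 assembly factors with the smallest p.

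Among 17 genes of the citrate cycle and pyruvate dehydrogenase, the median was 0.06. Cs, citrate synthase, was at 15.8, 17.2 and 28.7 FPKM across WT, against 38.1, 31.4 and 45.5 FPKM across the labelled-deficient libraries. Each labelled-deficient value was above each WT value, as for 8.67% of all tested genes, and the test was not passed (0.90 ± 0.41 SE, adjusted p = 0.508). Among 11 carriers and exchangers, which include cytochrome c (Cycs), the adenine nucleotide translocases and the porins, the median was -0.08. Cycs was at 6.06, 4.33 and 15.6 FPKM against 5.15, 5.39 and 18.0 FPKM, and Slc25a5, the most abundant translocase, at 67.9, 54.9 and 155 FPKM against 63.6, 42.2 and 135 FPKM. Both followed the order of the complexes, with replicate 3 highest in each group.

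Regulators of mitochondrial biogenesis act on the nuclear and mitochondrial genes of the chain. Of 14 tested, 2 (14.3%) were highest in replicate 3 of both groups, against 28% of all tested genes, and the median log2 difference was 0.04. Nrf1, a factor that binds many respiratory promoters, was at 10.1, 21.8 and 31.2 FPKM across WT, against 10.8, 21.1 and 13.6 FPKM across the labelled-deficient libraries, so that replicate 3 led in WT and replicate 2 in the other group. Gabpa, the ETS factor also called NRF-2, gave 8.62, 13.6 and 19.1 FPKM against 12.5, 11.6 and 18.2 FPKM. Yy1 gave 27.3, 24.8 and 41.2 FPKM against 43.6, 20.4 and 26.1 FPKM, and Tfam, which packages and transcribes mitochondrial DNA, 6.0, 4.61 and 32.3 FPKM against 8.47, 18.0 and 9.71 FPKM. The coactivator gene Ppargc1a stayed at or below 4.23 FPKM in every library and failed the expression filter.

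Because the structural genes were high together in the same libraries, their promoters are described. RefSeq promoter windows (GRCm38.p6, 250 bases before to 50 after the start) matched 66 of the 83 structural genes. A form of the NRF1 motif, GCGCA, any base and GCGC, was found on either strand in 17 of the 66 (25.8%), against 5.19% of all 27025 genes with a window and 7.17% of the protein-coding ones. CCGGAAGT, an ETS motif that GABPA binds, was in 5 (7.58%), against 4.31% and 5.69%. AAGATGGC, a YY1 motif, was in 9 (13.6%), against 3.19% and 3.57%. Any of the 3 motifs was in 29 of 66 (43.9%), against 11.7% and 15.1%, and no matches in these 66 overlapped each other. A match is a description of the letters and not a bound site. For each complex the gene with the most matches before its start (of Uqcr11 and Uqcrh, which tie, the first by name) is shown as the 250 bases upstream, 5′ to 3′ on the gene's strand, with the matches in capitals. Positions count back from the base before the start and give the leftmost base of a match.

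Ndufb4 (chr16:37654369-37654618, minus strand, NRF1 at -191, -79 and -22): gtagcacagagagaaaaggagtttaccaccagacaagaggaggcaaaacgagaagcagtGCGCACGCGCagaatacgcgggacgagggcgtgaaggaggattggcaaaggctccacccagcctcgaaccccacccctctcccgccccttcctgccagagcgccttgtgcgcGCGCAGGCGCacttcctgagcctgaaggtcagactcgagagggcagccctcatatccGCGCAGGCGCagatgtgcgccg
Sdha (chr13:74350241-74350490, minus strand, NRF1 at -98, -55 and -10): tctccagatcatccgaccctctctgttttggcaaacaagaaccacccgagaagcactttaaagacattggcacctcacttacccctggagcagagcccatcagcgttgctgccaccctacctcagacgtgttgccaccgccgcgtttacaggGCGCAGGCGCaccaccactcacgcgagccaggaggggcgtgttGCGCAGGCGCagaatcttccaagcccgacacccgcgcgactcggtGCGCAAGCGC
Uqcr11 (chr10:80406822-80407071, minus strand, ETS at -66): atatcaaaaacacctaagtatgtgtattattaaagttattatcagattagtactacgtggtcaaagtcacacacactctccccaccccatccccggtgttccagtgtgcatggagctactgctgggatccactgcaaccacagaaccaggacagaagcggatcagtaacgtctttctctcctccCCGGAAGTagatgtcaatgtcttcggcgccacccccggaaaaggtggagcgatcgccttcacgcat
Cox6a1 (chr5:115348959-115349208, minus strand, NRF1 at -162 and -117): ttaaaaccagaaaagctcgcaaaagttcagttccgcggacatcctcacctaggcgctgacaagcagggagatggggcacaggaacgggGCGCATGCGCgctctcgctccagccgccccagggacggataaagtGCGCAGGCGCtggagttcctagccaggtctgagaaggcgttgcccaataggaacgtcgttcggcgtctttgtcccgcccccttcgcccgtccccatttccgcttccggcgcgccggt
Atp5h (chr11:115419920-115420169, minus strand, NRF1 at -141 and ETS at -39): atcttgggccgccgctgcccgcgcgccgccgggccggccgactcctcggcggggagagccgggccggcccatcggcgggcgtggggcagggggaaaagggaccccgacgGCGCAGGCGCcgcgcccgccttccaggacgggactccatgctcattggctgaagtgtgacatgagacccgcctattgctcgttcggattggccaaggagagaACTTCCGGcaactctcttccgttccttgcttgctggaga

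Values were set beside these matches. The 16 tested genes with the NRF1 letters had a median log2 difference of 0.13 between groups, and the 44 without had -0.13. The median ratio of replicate 3 to the other libraries was 2.74 in WT and 2.03 in the labelled-deficient group with the letters, and 2.62 and 2.41 without. Ndufb4, with 3 matches, was at 45.1, 45.1 and 175 FPKM across WT, against 77.6, 46.7 and 134 FPKM across the labelled-deficient libraries, again highest in replicate 3 of both groups. No difference between genes with and without the letters was tested.

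Several other measurements moved with replicate 3. Of the cytosolic ribosomal protein genes, 66 of 68 (97.1%) were highest in replicate 3 of both groups, against 28% of all tested genes. So were 53 of 72 mitochondrial ribosomal protein genes (73.6%) and 13 of 20 cell cycle genes (65.0%). Of the tested monocyte, macrophage and neutrophil markers, 8 of 9 (88.9%) were too. The exception was Itgam, at 2.05 FPKM in WT replicate 2 and 0.771 FPKM in WT replicate 3. Cd14, which failed the expression filter, was highest in replicate 1 of both groups, at 2.33 and 4.81 FPKM. The cell cycle genes summed to 343, 341 and 596 FPKM across WT, against 248, 216 and 589 FPKM across the labelled-deficient libraries. The myeloid markers summed to 134, 298 and 578 FPKM against 133, 142 and 1449 FPKM, with Mpo at 257 and 589 FPKM in the replicates numbered 3. S100a9, which also failed the filter, was listed at 0 in all libraries but those 2, where it was at 27.0 and 333 FPKM. The ratio of replicate 3 to the others was also larger for short transcripts. It was 1.70 in WT and 1.47 in the labelled-deficient group at the median of 1146 other genes with a median transcript of at most 800 bases, and 1.09 and 0.939 over 3233 genes above 3000 bases. For the 74 oxidative phosphorylation genes, with a median length of 670 bases, it was 2.62 and 2.13. The part of myeloid cells, proliferation or transcript length in the result was not tested.

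**Figure D5:**
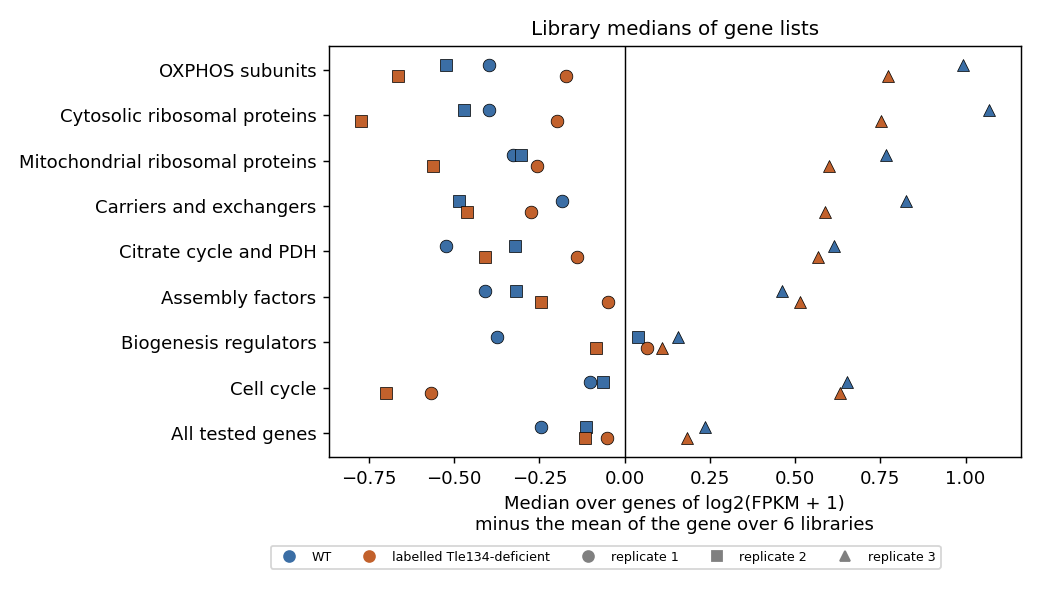
Median over the genes of each list of log2(FPKM + 1) minus the gene's mean over the 6 libraries, 1 point per library (colour for the group, shape for the replicate). For oxidative phosphorylation genes the points of WT replicate 3 (0.99) and labelled-deficient replicate 3 (0.77) lie apart from the other 4 (-0.66 to -0.17). These 2 points are also the highest in every other list shown. Over all tested genes they are the highest too, by less, at 0.24 and 0.18 against -0.25 to -0.05 for the other 4.

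Within the 70 genes above 0 in every library, genes with a high ratio in WT tended to have a high ratio in the labelled-deficient group (Pearson r 0.44, Spearman rho 0.36). The genes share libraries and are not independent, so this describes these libraries only. Against log2 transcript length, the log2 ratio had r -0.36 (rho -0.39) in WT and r -0.06 (rho -0.14) in the labelled-deficient group. The genes that did not rank highest in replicate 3 of both groups, among those above 0 throughout, were Ndufa3, Ndufa9, Cyc1, Uqcrc1, Cox8a, Atp5d and Atp5g3. In 6 of these 7 WT replicate 3 still led its group, the exception being Cyc1. In each of them labelled-deficient replicate 1 led its own group.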

How the data were processed

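The members, gene lists and comparisons were chosen with earlier results of these data known. The deposited tables hold FPKM and its interval for each locus, per the file headers, laid out as by Cufflinks. Trimmomatic 0.38, TopHat2 2.1.1, featureCounts 2.0.1 and mm9 stand in the submitters' processing notes without a stated role. The sources used here do not say how reads that fit several loci were counted or whether strand was used, so genes with processed pseudogenes are uncertain.

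FPKM was added per symbol, and symbols sharing a locus in any library were joined (24318 symbols, 23401 units). Genes at 1 FPKM or more in at least 3 libraries (11063) were tested with limma 3.58.1 (R 4.3.3) on log2(FPKM + 1), fitted on group alone with trended, robust empirical Bayes and Benjamini-Hochberg adjustment over all of them. The scale understates changes of low genes, and the code was tested on simulated data. Complex sums and shares carry no test. An item withheld from the text is not reported here. Fragments were implied from the interval width taken as 4 SD of a count. Named genes were, per complex, the 3 with the smallest p and the 2 with the highest mean, all paired isoforms and genes at 0 in some libraries. The single genes with replicate 3 ratios, Atp5sl, the role groups, the motif letters and the promoter examples were chosen after values were seen. Promoters are RefSeq's, and transcript lengths GENCODE's (74 of 74 members). Alternatives were another pseudocount, no filter, other scalings, a replicate block and leaving out each library.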

Additional observations from a re-analysis of the deposited data

Results flagged for a closer look

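The respiratory subunits encoded by mitochondrial DNA carry no symbol in the tables, but loci without a symbol on the mitochondrial chromosome were listed in every library, outside the comparisons above. A locus that spans bases 10575 to 16288 of the mm9 mitochondrial chromosome at its widest was at 423.6, 319.8 and 1037 FPKM across WT replicates 1 to 3 and at 731.6, 437.7 and 877.4 FPKM in labelled-deficient replicates 1 to 3. It was singled out as signal outside the comparisons that lay above 0 in all 6 libraries, with a deposited lower bound above 0 in each. The groups overlapped, and replicate 3 was the highest and replicate 2 the lowest library of both. A short locus that covers base 8245 to base 8446 in every library was also listed in all 6, at 78.6, 144 and 73.6 FPKM across WT, against 33.7, 85.4 and 30.8 FPKM across the labelled-deficient libraries. There replicate 2 had the highest and replicate 3 the lowest FPKM of both groups. The locus spanned 237 and 235 bases in the WT and labelled-deficient replicates 2, against 586 and 918 bases in replicates 3. FPKM is corrected for length, so the order of the libraries cannot be read from this locus. A longer locus, from about base 8 to base 6883, was at 7059, 6933 and 16661 FPKM across WT, against 10019 and 7313 FPKM in labelled-deficient replicates 1 and 2, and was not listed in replicate 3. The extent of these loci differs between libraries, no gene was assigned to them and no test was made.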

How the results depend on the processing

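Of the structural genes, 0 were called higher and 0 lower in each of 13 alternatives, and their median log2 difference ran from -0.43 (labelled-deficient replicate 3 left out) to 0.50 (WT replicate 3 left out). Both signs occurred, so no direction of the set can be read. Over all genes, where 71 were higher and 12 lower, the counts were 0 and 0 with no filter on low values, 3 and 1 when scaled to a common total, 1 and 1 with the replicate block, and 30 and 0 without both libraries numbered 3 (chosen after seeing the data). A pseudocount of 0.1 gave 3 lower. Leaving out single libraries gave 0 to 68 higher and 0 to 10 lower, with 68 higher after WT replicate 3, and 26 after labelled-deficient replicate 3, was left out. Deviations from the group means of same-numbered libraries correlated at 0.08, 0.18 and 0.17, so the numbers were not taken as pairs. Every WT library correlated best with the labelled-deficient library of its number, a hint from the data only, and the block changed no call of a member.

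The log2 ratio of complex I sums ranged from -0.12 to 0.88 when a library was left out, the latter without WT replicate 3. The range was -0.39 to 0.49 for complex II, -0.86 to 0.67 for III, -0.42 to 0.83 for IV, -0.54 to 0.68 for V and -0.40 to 0.77 for all complexes, so each ratio took both signs. Of 34 named genes tested, 20 changed sign under some alternative and none was called. Scaled to that common total, Cox6a1 was at 0.0216. Without both libraries numbered 3, Uqcrb was at 0.0623, Cox4i1 at 0.11, Cox6a1 at 0.37 and Atp5g3 at 0.13. With single libraries left out, the log2 difference ranged from -0.26 to 2.29 for Ndufb8, -0.81 to 0.11 for Sdhb, -0.73 to 0.11 for Uqcrh, -0.18 to 0.66 for Cyc1, -1.21 to 0.58 for Uqcrq and -0.45 to 0.43 for Uqcrb. It ranged from -0.20 to 0.84 for Cox6c, -0.37 to 0.54 for Cox5b, -0.43 to 0.47 for Cox4i1, -0.56 to 0.64 for Cox6a1, -0.0119 to 0.93 for Cox6b1, -0.44 to 1.28 for Cox6b2, -0.31 to 0.71 for Cox7a2 and -0.63 to 0.11 for Cox7a2l. The range was -1.21 to 0.0542 for Atp5j2, -0.43 to 0.68 for Atp5h, -0.53 to 0.32 for Atp5g2, -0.71 to 0.30 for Atp5g3, -0.36 to 0.87 for Ndufa4 and -1.95 to 0.32 for Ndufb6. The cause of these changes was not tested. Counts were not used here, so depth is known only as implied fragments. The within-group SD had a median of 0.89 on the log2 scale for these genes, above 0.62 for all tested genes.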

Other observations

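Mitochondrial antioxidant genes, which remove superoxide and peroxide made by the respiratory chain, had a median log2 difference of 0.14 over 8 tested genes, and 0 were called by limma, also at an unadjusted p under 0.05. Sod2, the manganese superoxide dismutase of the matrix, was at 26.6, 7.94 and 7.77 FPKM in WT replicates 1 to 3, against 3.38, 4.57 and 6.60 FPKM across the labelled-deficient libraries. Each labelled-deficient value was below each WT value, as for 6.56% of all tested genes, while WT replicate 1 stood far above the other 2 (-1.18 ± 0.54 SE, adjusted p = 0.516). Ucp2, an inner-membrane carrier common in blood cells, was at 190, 117 and 205 FPKM across WT, against 217, 164 and 120 FPKM across the labelled-deficient libraries (-0.03, adjusted p = 0.997). Its lowest value in the labelled-deficient group was in replicate 3.

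Mitochondrial ribosomal protein genes, which serve to translate the subunits encoded by mitochondrial DNA, had a median of -0.02 over 72 tested genes, with 35 above 0 and 37 below. Tfb2m, a transcription factor of mitochondrial DNA, was at 3.29, 4.66 and 10.04 FPKM across WT, against 17.1, 10.5 and 9.19 FPKM across the labelled-deficient libraries, so the groups overlapped through 1 library of each (0.99 ± 0.49 SE, adjusted p = 0.559). Polg, the mitochondrial DNA polymerase, was at 8.00, 10.2 and 9.51 FPKM against 18.6, 11.3 and 15.4 FPKM. Its groups did not overlap, as for 8.67% of all tested genes in this direction, and it was not called (0.64 ± 0.39 SE, adjusted p = 0.680).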
